A study of Mus musculus with 6 samples.

Results

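The imprinted Dlk1-Dio3 domain of mouse chromosome 12 carries one of the largest clusters of microRNA (miRNA) genes in the mouse, and all annotated miRNA genes of that stretch were followed here through 6 small RNA libraries of whole testis. Members were taken by position alone, as GENCODE genes of type miRNA with a symbol starting Mir between 109.56 and 109.76 Mb of GRCm38 chromosome 12. The rule found 59 members among 2202 annotated miRNA genes. A read was given to a member when its 18 to 26 nucleotides (nt) stood without mismatch on the sense strand of the hairpin, and a read found in several miRNA genes was divided evenly among them. Levels are reads per 1000000 reads given to miRNA genes in that library (RPM).

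The libraries come from C57BL/6 mice and each one is a group of its own. They are Dnmt3L knockout (KO) and Dnmt3L wild-type (WT) testis at 16.5 days post coitum (dpc), Dnmt3L KO and Dnmt3L WT testis at 10 days post partum (dpp), and Miwi2 KO and Miwi2 WT testis at 10 dpp. The WT animals were littermates of the mutants. Each fetal library pooled the testes of 7 or 8 mice and each postnatal library those of 3 mice. Dnmt3L is a cofactor of de novo DNA methylation in germ cells, and Miwi2 is a PIWI protein that carries small RNAs into the nucleus of fetal male germ cells. Whole testis mixes germ cells with Sertoli, interstitial and vascular cells, so fewer cells of a type and less RNA per cell cannot be told apart. With 1 library per group there is no replicate spread, so no test between groups was possible, and every interval given below is a 95% interval that covers counting error only. Small RNA reads do not check the deletions of Dnmt3L and Miwi2 themselves.

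In the embryo and in the tissues studied so far, the noncoding RNAs of the domain (Meg3, the Rtl1 antisense, Rian and Mirg) are transcribed from the maternal chromosome, and the miRNAs are cut from these transcripts by Drosha and Dicer. The paternal copy is silenced through DNA methylation of a control region that is laid down in fetal male germ cells, a step that needs Dnmt3L. Each hairpin can give a mature miRNA from its 5′ arm (5p) and another from its 3′ arm (3p), and bases 2 to 8 of a mature miRNA, the seed, pair with target messages. Which allele a read came from cannot be read from these counts.

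The mature sequences on which the results turn are given from the RefSeq table of GRCm38.p6, 5′ to 3′, with the seed in capitals. The first 5 lead the cluster in abundance. The next 3 belong to members set apart in the fetal Dnmt3L comparison, and miR-540-3p is one of the G- and C-rich members that were low at 10 dpp. The last 4 are both arms of the hairpins Mir379 and Mir370, which moved apart.
miR-127-3p: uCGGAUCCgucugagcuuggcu
miR-434-3p: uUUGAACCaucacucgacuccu
miR-541-5p: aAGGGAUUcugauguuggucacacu
miR-411-5p: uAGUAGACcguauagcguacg
miR-410-3p: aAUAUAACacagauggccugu
miR-323-3p: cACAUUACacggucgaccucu
miR-434-5p: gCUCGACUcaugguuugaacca
miR-433-3p: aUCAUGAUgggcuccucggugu
miR-540-3p: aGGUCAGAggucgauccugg
miR-379-5p: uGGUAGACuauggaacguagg
miR-379-3p: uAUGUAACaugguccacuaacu
miR-370-5p: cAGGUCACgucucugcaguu
miR-370-3p: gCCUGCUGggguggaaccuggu
On chromosome 12 the miR-127-3p sequence lies at 109592888 to 109592909, miR-434-5p at 109594528 to 109594549, miR-434-3p at 109594565 to 109594586, miR-323-3p at 109712558 to 109712578, miR-541-5p at 109742422 to 109742446 and miR-410-3p at 109743764 to 109743784, all on the plus strand. The first 3 of these lie opposite Rtl1, and the last 2 lie within the annotated span of Mirg.

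Of the mature arms listed in the RefSeq table used here, 77 had at least 100 reads, and these carried 74 different seeds, taken from the RefSeq sequences. The table lacks some arms, among them miR-485-5p, miR-487b-3p and miR-376c-3p, which gave the most frequent reads of Mir485, Mir487b and Mir376c. Counts of arms, seeds, leading arms and ends leave such arms out. Seeds shared inside the cluster were AUGUAAC (miR-379-3p and miR-411-3p), GGUAGAC (miR-379-5p and miR-1193-5p) and AGGUCAC (miR-370-5p and miR-1193-3p). Of the reads of miR-1193-5p only 4.08% to 24.1% per library began at the RefSeq start, so most of them did not carry this seed. A further 10 seeds were shared with an annotated miRNA outside it, among them AUAUAAC of miR-410-3p, which is also the seed of the miR-344d-3p and miR-344e-3p sequences. The most abundant arm, miR-127-3p, shared its seed with no other listed miRNA.

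The miRNA genes drew between 12101706 reads (Dnmt3L KO, 16.5 dpc) and 24433370 reads (Dnmt3L WT, 10 dpp) per library. A count of 0 had a 95% upper bound of 0.151 RPM (Dnmt3L WT, 10 dpp) to 0.305 RPM (Dnmt3L KO, 16.5 dpc). The 2 Dnmt3L libraries of 10 dpp stood apart from the other 4 in form. They listed reads of up to 100 nt where the others stopped at 50 nt, and miRNA genes took 75.5% (KO) and 64.2% (WT) of all their reads, against 25.6% to 39.4% elsewhere. In the other 4 libraries, reads of the members often carried T where the hairpin has G at read position 1 or 4. At position 1 this share was 21.2% in Dnmt3L KO and 21.7% in Dnmt3L WT at 16.5 dpc, 0.144% and 0.147% in Dnmt3L KO and WT at 10 dpp, and 10.6% and 10.5% in Miwi2 KO and WT. At position 4 the shares were 5.22% and 5.60%, 0.0595% and 0.0697%, and 8.05% and 7.85% in the same order of libraries. Such reads fall outside the exact match, and counting them would have added 6.36% at most to the cluster's reads in the fetal libraries, 6.84% in the Miwi2 libraries and 0.181% in the Dnmt3L libraries of 10 dpp. In listed read length and G-to-T reads, KO and WT libraries of a pair therefore had the same form. The age comparisons within the Dnmt3L line, and that of both WT libraries at 10 dpp, cross it, and its part in those results was not tested. In the length of miRNA reads the fetal pair was unlike, with 38.2% of them at 22 nt in KO and 50.2% in WT. The Miwi2 pair had 47.2% and 48.0%, and the Dnmt3L pair of 10 dpp 58.0% and 56.5%, KO before WT.

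**Figure D1:**
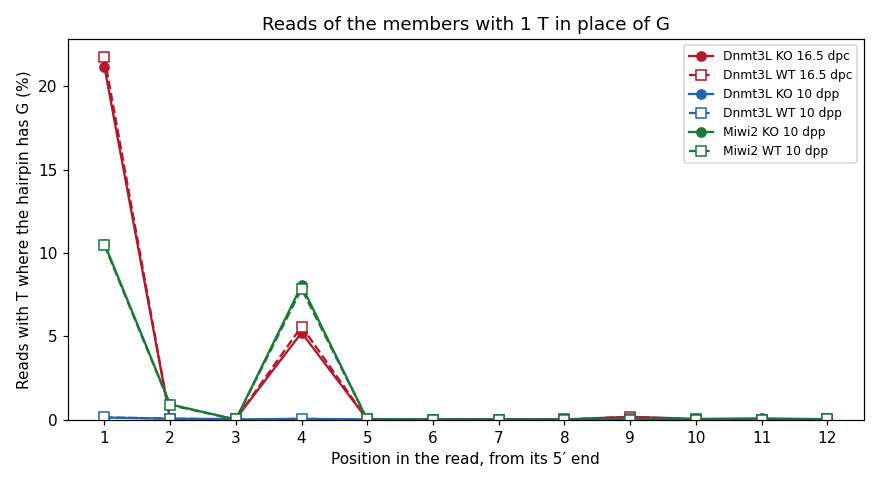
Share of member reads with T where the hairpin has G (y axis, %) by position in the read from its 5′ end (x axis), for the 6 libraries, with filled points and solid lines for KO and open points and dashed lines for WT. Positions 1 and 4 stand out in the fetal and Miwi2 libraries, reaching 21.7% at position 1, and stay under 0.15% in both Dnmt3L libraries of 10 dpp.

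Together the members gave 13.2% of miRNA reads in Dnmt3L KO and 12.9% in Dnmt3L WT testis at 16.5 dpc, 8.33% in Dnmt3L KO and 5.95% in Dnmt3L WT testis at 10 dpp, and 6.08% in Miwi2 KO and 9.26% in Miwi2 WT testis at 10 dpp. Of the 59 members, 54 had at least 1 read and 48 had at least 100 reads over all libraries. No read was found for Mir432, Mir3071, Mir882, Mir654 and Mir453. Between 1 and 99 reads were found for Mir3544, Mir3070a, Mir3070b, Mir1188, Mir299b and Mir544. At 10 RPM or more in every library stood 33 members.

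A few members made up nearly all of these reads. Mir127, whose 3p arm targets the Rtl1 message that lies opposite it, took 42.1% to 68.0% of the cluster's reads in each library, and the 10 most abundant members took 94.0% to 97.6%. Mir127 (chromosome 12, 109592846 to 109592915) had 64548 RPM in Dnmt3L KO and 87784 RPM in Dnmt3L WT at 16.5 dpc, 46720 RPM in Dnmt3L KO and 35304 RPM in Dnmt3L WT at 10 dpp, and 25625 RPM in Miwi2 KO and 45444 RPM in Miwi2 WT. It was the highest member in all 6 libraries.

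Below Mir127 the order changed between libraries. Mir434 (109594506 to 109594599) had 18037 and 4577 RPM in Dnmt3L KO and WT at 16.5 dpc, 11023 and 4593 RPM in Dnmt3L KO and WT at 10 dpp, and 10041 and 15712 RPM in Miwi2 KO and WT. Mir541 (109742409 to 109742498) had 16658 and 13509 RPM in the fetal Dnmt3L pair, 7860 and 7168 RPM in the postnatal Dnmt3L pair, and 2518 and 4601 RPM in the Miwi2 pair, again KO before WT. Mir541 thus stood above Mir434 in the fetal WT library and below it in the fetal KO library. Mir411 (109710175 to 109710256) had 4317 and 3774 RPM in the fetal pair, 8801 and 6641 RPM in the postnatal Dnmt3L pair, and 9023 and 10281 RPM in the Miwi2 pair, and was higher in all 4 postnatal libraries than in the fetal ones.

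Mir410 (109743715 to 109743795) had 8214 RPM in Dnmt3L KO and 801 RPM in Dnmt3L WT at 16.5 dpc, 2559 and 1982 RPM in Dnmt3L KO and WT at 10 dpp, and 4728 and 4625 RPM in Miwi2 KO and WT. The fetal WT library was the lowest of the 6 and the fetal KO library the highest. Mir323 (109712508 to 109712593), a member of low abundance, had 115 RPM in Dnmt3L KO and 19.4 RPM in Dnmt3L WT at 16.5 dpc, 15.8 and 11.3 RPM in Dnmt3L KO and WT at 10 dpp, and 24.9 and 41.4 RPM in Miwi2 KO and WT. Here the fetal KO library alone stood above 100 RPM.

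The remaining 5 of the 10 most abundant members had lower levels. Mir381 ran between 1050 RPM in Dnmt3L WT at 10 dpp and 3276 RPM in Miwi2 WT. Mir431, Mir409 and Mir540 were highest in the fetal libraries. Mir431 had 287 to 1496 RPM in the 4 postnatal libraries, against 4779 and 3245 RPM in fetal KO and WT. Mir409 had 376 to 1353 RPM after birth, against 2843 and 3834 RPM in fetal KO and WT. Mir540 had 98.8 to 622 RPM after birth, against 2471 and 1841 RPM in fetal KO and WT. Mir136 showed the reverse in part, with 614 to 1386 RPM after birth and 401 and 646 RPM in fetal KO and WT.

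**Figure D2:**
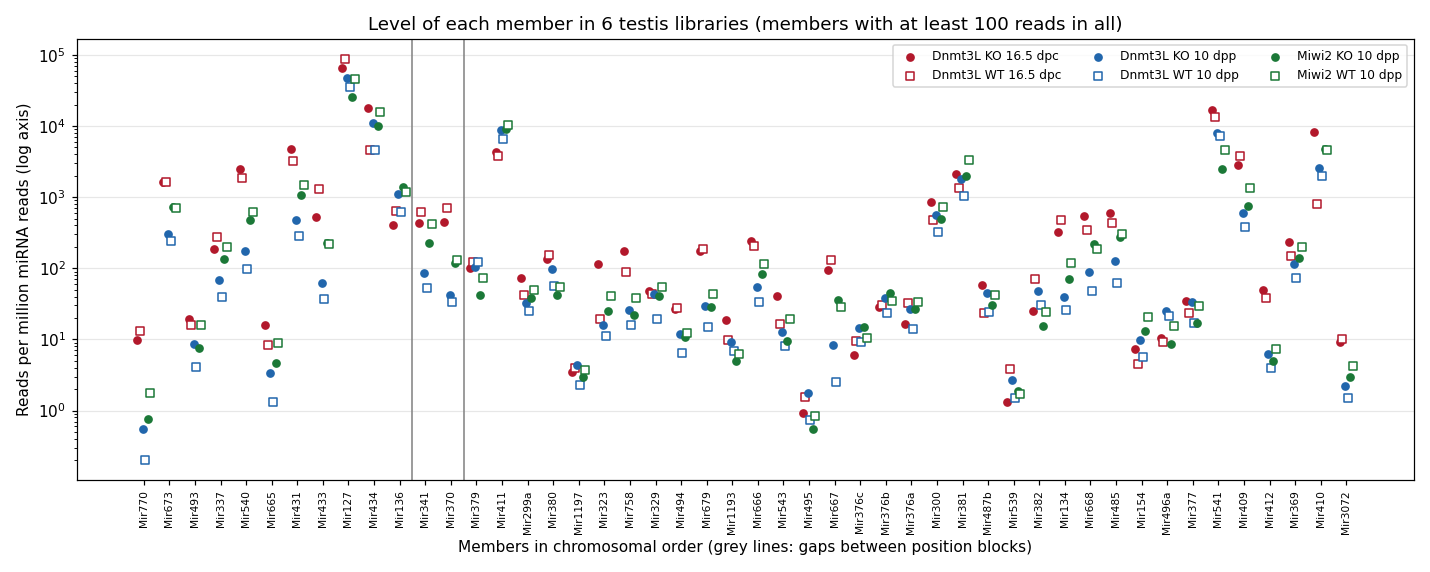
Level of each of the 48 members with at least 100 reads in all (y axis, RPM, log axis) in chromosomal order (x axis), in the 6 libraries, with KO as filled circles and WT as open squares. Mir127 is the highest member in every library, and the open red square of Mir410 (801 RPM, fetal WT) lies far below its filled red circle (8214 RPM, fetal KO).

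Gaps of more than 10 kb divided the members into 4 blocks by position. The first block, from Mir770 in Meg3 to Mir136 opposite Rtl1 (109563692 to 109595397), held 16 members and 65.3% to 78.5% of the cluster's reads. The second, Mir341, Mir1188 and Mir370 inside Rian (109611500 to 109618336), held 0.146% to 1.02% of them. Mir882 stood alone and unread. The last block, from Mir379 to Mir3072 (109709060 to 109747960), held 39 members and 20.5% to 34.2% of the reads. Of all members 56 lie on the plus strand, the strand of Meg3, Rian and Mirg. The 3 on the minus strand, Mir3544, Mir3071 and Mir299b, gave at most 21 reads each over all libraries.

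In fetal testis without Dnmt3L the cluster's summed share was nearly that of the WT testis, while single members diverged widely. The ratio of the sums, KO over WT, was 1.02 (1.018 to 1.022 by counting error), a log2 ratio of 0.028. Mir127, which gave 49.0% of the cluster's reads in KO and 68.0% in WT, weighed heavily in it: without Mir127 the log2 ratio of the sums was 0.70, and with reads of 1 miRNA gene only it was 0.30. Among 45 members with at least 100 reads over both libraries the log2 ratio had a median of 0.20, against -0.10 for all 443 miRNA genes so measured, and its standard deviation over members was 0.92. Ratios above 1 were found for 25 members, where 44.7% of all miRNA genes had one. As a yardstick of size, a difference was called when its log2 ratio lay beyond 2.64 (6.23-fold) in either direction, the 95th percentile of absolute log2 ratios over 528 miRNA genes between Miwi2 WT and Dnmt3L WT at 10 dpp. Those 2 libraries differ in form, with a median log2 ratio of 0.87 over all miRNA genes, so the limit may be wide for the KO comparisons. By this rule 1 of 45 members was called (Mir410), where 1.58% of all miRNA genes were. At 2-fold, 5 members were higher in KO (11.3% of all miRNA genes were) and 2 lower (12.6% of all). The count of higher members was near the background, and that of lower members below it.

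Mir410 had a log2 ratio of 3.36 in fetal KO over WT, a 10.3-fold difference (10.0 to 10.5). Mir323 had 2.56 (5.91-fold, 5.16 to 6.82), just under the limit, and Mir434 had 1.98 (3.94-fold, 3.90 to 3.98). Mir543, with 40.6 RPM in KO and 16.7 RPM in WT, had 1.28. Mir487b, named after its values were seen, had 1.27, with 57.5 RPM in KO and 23.8 RPM in WT. The members lowest in KO relative to WT were Mir382 (24.9 RPM in KO and 70.2 RPM in WT, log2 ratio -1.50), Mir433 (531 RPM in KO and 1286 RPM in WT, -1.27) and Mir376a (16.4 RPM in KO and 32.2 RPM in WT, -0.97). Scaling by TMM shifted every log2 ratio of this pair by 0.05, and scaling to all reads of the library by -0.19, so none of these 8 changed its direction.

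Hairpins near Mir410 and Mir323 had lower ratios. Next to Mir410 in Mirg lie Mir409 (109743158 to 109743236), Mir412 (109743289 to 109743368) and Mir369 (109743418 to 109743496), given here for their position. Their log2 ratios in fetal KO over WT were -0.43, 0.39 and 0.65, and that of Mir3072, downstream of Mir410, was -0.12. The hairpin just before Mir323, Mir1197 (109712317 to 109712436), had 42 reads in fetal KO and 49 in fetal WT, under the minimum of 100 for a ratio. The nearest measured neighbours of Mir323 were Mir380 (-0.14) and Mir758, which had 177 RPM in KO and 88.9 RPM in WT (0.99). In the same way Mir434 (1.98) sits between Mir127, which had a log2 ratio of -0.44, and Mir136, which had -0.69. Neighbouring hairpins of the same block thus differed in direction.

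Both arms of a hairpin come from the same precursor, and they too diverged in the fetal pair. Over 22 hairpins with enough reads on both arms, the log2 ratios of the 5p and 3p arms differed by a median of 1.08, and by 2-fold or more in 11. The same difference had a median of 0.28 over 21 hairpins in the Dnmt3L pair of 10 dpp, with 4 at 2-fold or more, and 0.45 over 19 hairpins in the Miwi2 pair, with 1. Between Miwi2 WT and Dnmt3L WT at 10 dpp, it was wider than in the fetal pair, at 1.34 over 22 hairpins, with 15. In Dnmt3L WT at 10 dpp over 16.5 dpc it was 1.02 over 24 hairpins, with 13. Splits of this size thus also arose without a KO library. Arms of hairpins outside the cluster were not counted, so no background share stands beside these counts. Mir379 had the widest split between Miwi2 WT and Dnmt3L WT, -4.04 for its 5p arm and 0.60 for its 3p arm. It also showed the widest split in the fetal pair. Its 5p arm had a log2 ratio of -2.34 and its 3p arm 1.28, so that the 5p arm made up 17.05% (15.0% to 19.3%) of the arm reads in fetal KO and 71.7% (69.4% to 74.0%) in fetal WT. For Mir370 the 5p arm had 2.64 and the 3p arm -0.91. For Mir299a they had 2.82 and 0.41.

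The higher level of Mir434 in fetal KO lay in its 3p arm. miR-434-3p had 17024 RPM in fetal KO and 3348 RPM in fetal WT (log2 ratio 2.35), whereas miR-434-5p had 1012 RPM in KO and 1229 RPM in WT (-0.28). Mir543 was alike, with 1.72 for its 3p arm and -0.54 for its 5p arm. Mir410 was read almost wholly from its 3p arm, which had 8210 RPM in fetal KO and 793 RPM in fetal WT. The fetal pair also differed in length profile. Of the cluster's reads, 50.4% were 22 nt long in fetal KO and 63.8% in fetal WT, where the postnatal libraries had 52.0% to 55.5%. Over all miRNA reads the shares were 38.2% in fetal KO and 50.2% in fetal WT, so this difference was not particular to the cluster. The most frequent read of Mir410, of 21 nt, made up 89.4% of its reads in fetal KO and 76.5% in fetal WT; over its reads of 22 nt alone the log2 ratio was 2.03. The part of the length profile in the split between arms was not tested.

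**Figure D3:**
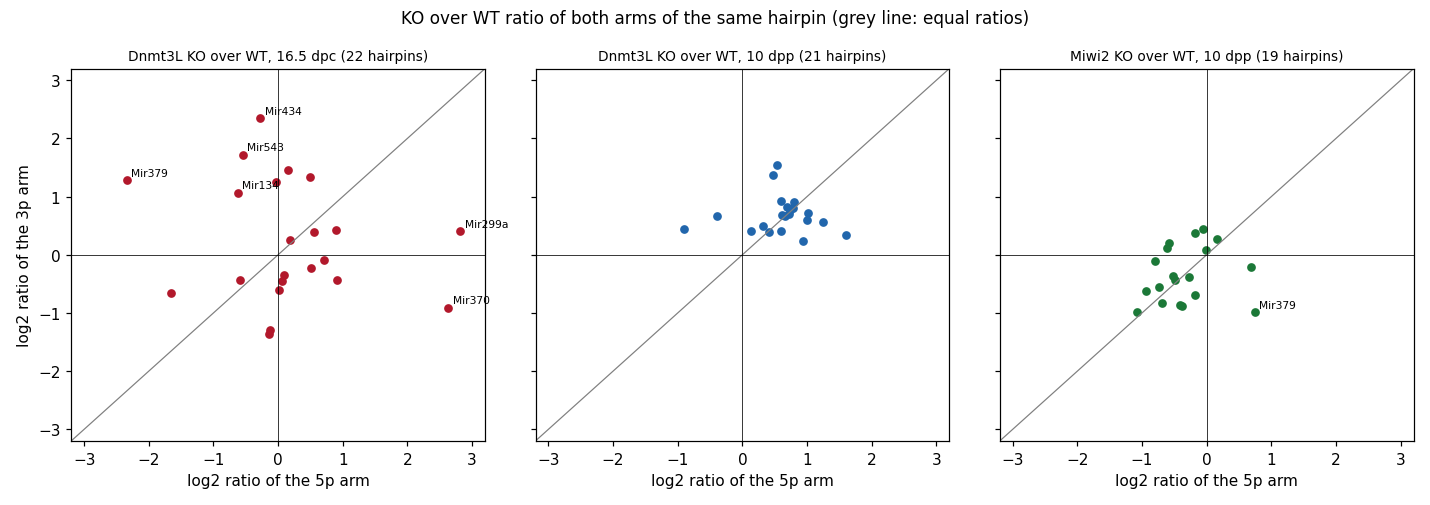
log2 ratio of KO over WT for the 5p arm (x axis) and the 3p arm (y axis) of the same hairpin, one point per hairpin, in the Dnmt3L pair of 16.5 dpc, the Dnmt3L pair of 10 dpp and the Miwi2 pair of 10 dpp, with hairpins named where the arms differ by at least 1.5. Fetal points scatter away from the line of equal ratios (median difference 1.08 over 22 hairpins), while the postnatal pairs lie nearer to it (0.28 and 0.45).

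At 10 dpp, testis without Dnmt3L had nearly every member somewhat higher than its WT counterpart. The cluster gave 8.33% of miRNA reads in KO and 5.95% in WT, a ratio of 1.40 (1.397 to 1.403). Ratios above 1 were found for 43 of 44 members, where 54.7% of all 479 miRNA genes had one. The median log2 ratio of the members was 0.72, against 0.17 over all miRNA genes, and the standard deviation over members was 0.34. No member passed the limit, which 18.6% of all miRNA genes did, and 6 members were 2-fold higher or more, where 5.43% of all were. Scaled by TMM, which lowered every log2 ratio of this pair by 0.26, ratios above 1 were found for 41 of 44 members and the median was 0.46. Scaled to all reads, 43 of 44 were above 1 and the median was 0.95.

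Highest in KO over WT were members of both large blocks. Mir667 had 8.21 RPM in KO and 2.54 RPM in WT (log2 ratio 1.69), Mir665 3.32 RPM in KO and 1.31 RPM in WT (1.33), and Mir434 11023 RPM in KO and 4593 RPM in WT (1.26). Beyond 2-fold were also Mir493 (1.06) and, outside the rule for named members, Mir329 (1.14) and Mir485 (1.03). Mir127 had a log2 ratio of 0.40, Mir410 one of 0.37 and Mir323 one of 0.49. Mir379 alone lay below 1, with 103 RPM in KO and 122 RPM in WT (-0.25). Mir541 (0.13) and Mir496a (0.25) lay just above 1, and below it under TMM. In position the medians were alike, 0.80 over 10 members of the first block, 0.51 over 2 of the second and 0.69 over 32 of the last.

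Loss of Miwi2 went with lower levels of most members at the same age. The cluster gave 6.08% of miRNA reads in Miwi2 KO and 9.26% in Miwi2 WT, a ratio of 0.657 (0.655 to 0.658). Ratios below 1 were found for 37 of 45 members, where 50.8% of all 533 miRNA genes had one, and the median log2 ratio was -0.51, against -0.01 over all. No member passed the limit, as 0.563% of all miRNA genes did, and 2 members were 2-fold lower or more, where 2.44% of all were. Those were Mir493, with 7.60 RPM in KO and 15.8 RPM in WT (-1.05), and Mir543, with 9.55 RPM in KO and 19.4 RPM in WT (-1.02). Mir665 followed at -0.92.

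Mir127 had a log2 ratio of -0.83 in Miwi2 KO over WT, Mir541 -0.87, Mir434 -0.65 and Mir323 -0.73. Mir410 hardly differed, at 0.032. The highest ratios were those of Mir376c (14.8 RPM in KO and 10.5 RPM in WT, 0.49), Mir376b (44.7 RPM in KO and 35.0 RPM in WT, 0.35) and Mir667 (35.3 RPM in KO and 28.3 RPM in WT, 0.32). The medians of the blocks were again close, at -0.52, -0.52 and -0.51. TMM moved the ratios of this pair by 0.01 and scaling to all reads by -0.03, with 8 and 6 of 45 members above 1.

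Dnmt3L KO and Miwi2 KO testes of 10 dpp thus lay on different sides of their own WT. The WT libraries themselves lay apart, and both KO shares (8.33% and 6.08%) fell between Dnmt3L WT (5.95%) and Miwi2 WT (9.26%). The cluster's log2 ratio was 0.64 for Miwi2 WT over Dnmt3L WT, against 0.49 and -0.61 in the Dnmt3L and Miwi2 pairs. Scaled by TMM, the same ratios were -0.21, 0.23 and -0.59. Of the 44 members measured in both comparisons, 35 were above 1 in the Dnmt3L pair and below 1 in the Miwi2 pair, where 27.8% of 468 miRNA genes measured in both were. A further 8 were above 1 in both and 1, Mir379, was below 1 in both. The pairs share no library, and the difference between them could not be tested with 1 library per group.

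**Figure D4:**
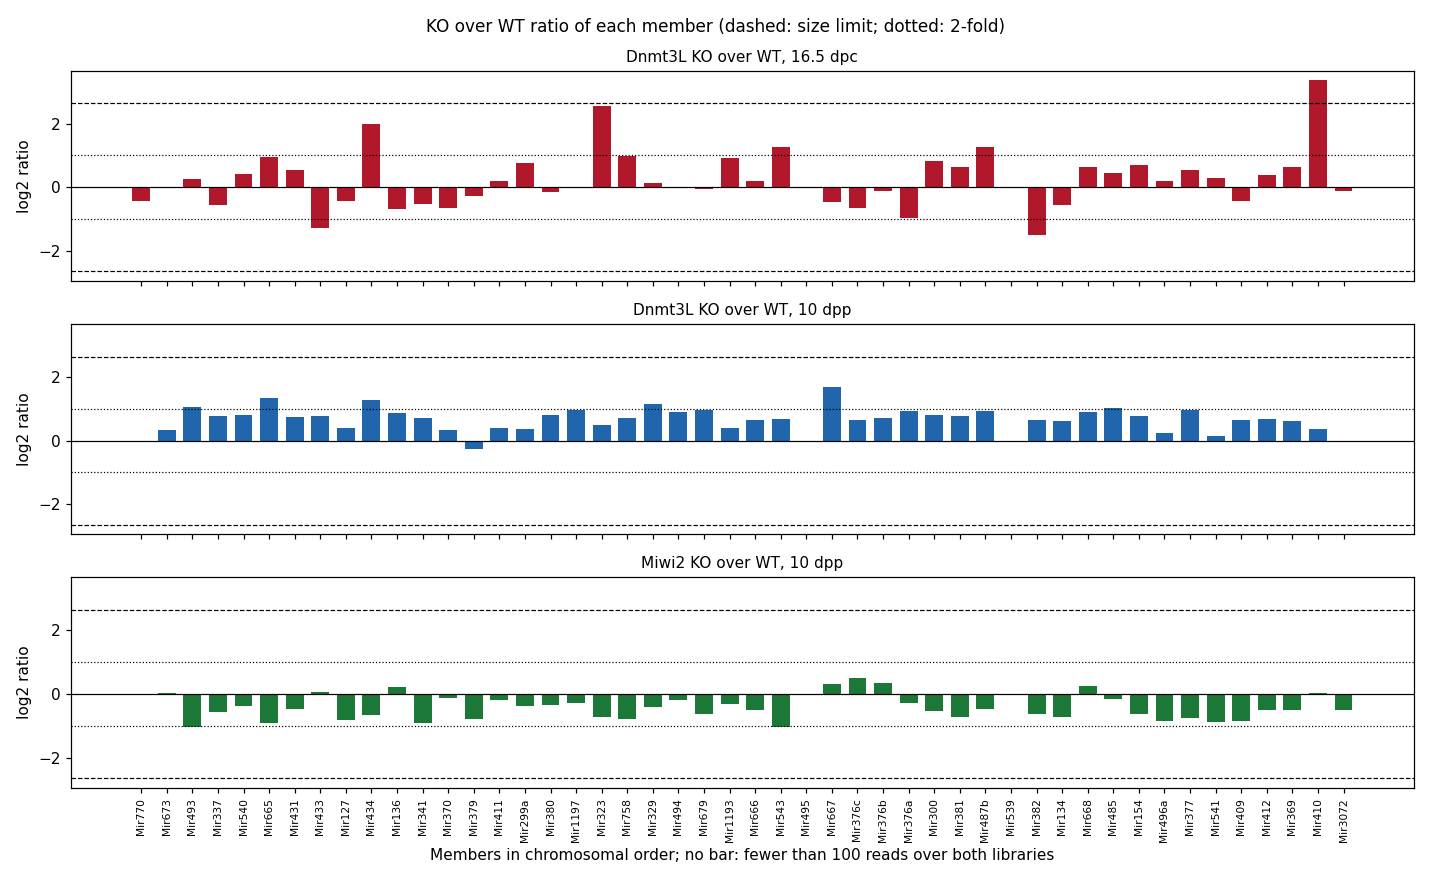
log2 ratio of KO over WT (y axis) of each member in chromosomal order (x axis) for the fetal Dnmt3L pair, the Dnmt3L pair of 10 dpp and the Miwi2 pair of 10 dpp, with dashed lines at the size limit of 2.64 and dotted lines at 2-fold. Fetal bars alternate in sign with Mir410 above the limit at 3.36, bars of the postnatal Dnmt3L pair are positive for 43 of 44 members, and those of the Miwi2 pair are negative for 37 of 45.

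Markers of other cell types moved in these pairs as well, and their part in the members' ratios was not tested. The X-linked testis miRNAs (9 of 10 listed were annotated, none at 0) summed to 13304 RPM in Dnmt3L KO and 48741 RPM in Dnmt3L WT at 10 dpp, and to 71062 RPM in Miwi2 KO and 35054 RPM in Miwi2 WT, log2 ratios of -1.87 and 1.02 against the cluster's 0.49 and -0.61. The epithelial list (7 of 7) summed to 790 RPM in Dnmt3L KO and 301 RPM in Dnmt3L WT at 10 dpp, and to 545 RPM in Miwi2 KO and 772 RPM in Miwi2 WT. The Sertoli marker Mir202 had log2 ratios of 1.03, 0.50 and 0.75 in the fetal Dnmt3L, postnatal Dnmt3L and Miwi2 pairs. In the fetal pair the peritubular and fibroblast list (5 of 5) summed to 21308 RPM in KO and 41173 RPM in WT, and the neuron list (6 of 6) to 4.71 RPM in KO and 33.1 RPM in WT. Of the germ and pluripotency list (11 of 12 annotated), Mir302c and Mir367 were at 0, and the rest summed to 433 RPM in fetal KO and 599 RPM in fetal WT. The endothelial, erythroid and haematopoietic lists had log2 ratios of at most 0.84 in size in these 3 pairs.

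At 10 dpp the cluster took a smaller share of miRNA reads than at 16.5 dpc. In Dnmt3L WT testis it gave 5.95% at 10 dpp and 12.9% at 16.5 dpc, a ratio of 0.461 (0.460 to 0.462), with ratios below 1 for 40 of 46 members, where 49.5% of all 471 miRNA genes had one. The median log2 ratio was -1.27, against 0.02 over all miRNA genes. Past the limit and lower at 10 dpp were 17 members, where 14.9% of all miRNA genes were. At 2-fold, 28 were lower (30.6% of all) and 2 higher (32.7% of all). These 2 were Mir410 (1.31) and Mir496a, with 21.2 RPM at 10 dpp and 9.11 RPM at 16.5 dpc (1.21). Mir411 followed at 0.82. The lowest were Mir770, with 0.205 RPM at 10 dpp and 13.2 RPM at 16.5 dpc (-5.88), Mir667, with 2.54 and 131.6 RPM at the same ages (-5.69), and Mir433, with 37.0 and 1286 RPM (-5.12).

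On this scale the size of the age difference depended on which WT library stood for 10 dpp. With Miwi2 WT in place of Dnmt3L WT, a comparison chosen after the data were seen, the cluster's ratio was 0.717 (0.716 to 0.719), 27 of 46 members were below 1 (30.8% of all 517 miRNA genes were), 17 were 2-fold lower or more (15.9% of all), and 1 was past the limit and lower, Mir770 (4.64% of all). The median was -0.53, against 0.98 over all miRNA genes. Mir433 then had -2.57, Mir667 -2.22, Mir540 -1.57 and Mir410 2.53. Scaled by TMM, both choices gave close values, a median of -1.38 with 39 of 46 members below 1 for Miwi2 WT, and of -1.35 with 42 of 46 below 1 for Dnmt3L WT. Scaled to all reads of the library, where miRNA genes took 64.2% of the reads at 10 dpp and 29.3% at 16.5 dpc in Dnmt3L WT, every log2 ratio was 1.13 higher, 20 of 46 members were above 1, and the cluster's log2 ratio was 0.016.

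Dnmt3L KO testis gave 8.33% at 10 dpp and 13.2% at 16.5 dpc, a ratio of 0.633 (0.631 to 0.634). The median log2 ratio was -1.18, against -0.88 over all 457 miRNA genes. Past the limit and lower were 10 of 46 members (12.3% of all), 28 were 2-fold lower or more (47.0% of all) and 4 were 2-fold higher or more (22.8% of all). The 4 were Mir136, with 1119 RPM at 10 dpp and 401 RPM at 16.5 dpc (1.48), Mir496a (1.26), Mir376c (1.22) and Mir411 (1.03). The lowest were Mir770 (-4.10), Mir540 (-3.84) and Mir667 (-3.54). TMM raised the ratios of this comparison by 0.50 and scaling to all reads by 1.56, which left 30 and 21 of 46 members below 1. Mir410 went the other way than in WT testis, with -1.68 here and 1.31 there. The marker lists also moved with age. In Dnmt3L WT at 10 dpp over 16.5 dpc the log2 ratio of the germ and pluripotency list was -3.31, of the X-linked testis list 2.22, of the Sertoli marker 1.94 and of the erythroid list -2.04. In Dnmt3L KO it was -3.17, 0.48, 1.41 and -0.53 for the same lists, and 3.12 for the neuron list and 1.54 for the epithelial list. Their part in the age differences was not tested. Both age comparisons draw on libraries of the KO comparisons, so the opposite directions of Mir410 restate its fetal KO and WT values.

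The 2 WT libraries of 10 dpp differ in mouse line and litter and in the form of the library, and most members had higher levels in Miwi2 WT. The cluster gave 9.26% of miRNA reads in Miwi2 WT and 5.95% in Dnmt3L WT, a ratio of 1.56 (1.55 to 1.56). Ratios above 1 were found for 39 of 45 members (83.7% of all 528 miRNA genes), and 28 were 2-fold higher in Miwi2 WT or more (44.1% of all). The median log2 ratio was 1.42, against 0.87 over all. Past the limit and higher were 4 members (4.73% of all, which the limit itself fixes near 5%), namely Mir667 (28.3 RPM in Miwi2 WT and 2.54 RPM in Dnmt3L WT, 3.47), Mir341 (423 and 53.1 RPM in Miwi2 WT and Dnmt3L WT, 2.99), Mir665 (2.75) and Mir540 (2.65). Lowest were Mir379 (-0.73), Mir541 (-0.64) and Mir496a (-0.45). TMM lowered the ratios by 0.85, leaving 32 of 45 members above 1, and scaling to all reads by 0.70, leaving 34. Under both, the cluster's own log2 ratio of 0.64 turned below 0, to -0.21 and -0.0653.

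Members rich in G and C had lower ratios of 10 dpp over 16.5 dpc than members poor in them. In Dnmt3L WT at 10 dpp over 16.5 dpc, 13 members whose most frequent read held 55% G and C or more had a median log2 ratio of -3.50, and 14 members under 45% had one of -0.67. Among other miRNA genes these medians were -0.07 (167 genes) and 0.46 (109 genes). Pearson's r between log2 ratio and G and C content was -0.74 and Spearman's rho -0.71 over 46 members, against -0.38 and -0.27 over 425 other miRNA genes. In Dnmt3L KO they were -0.72 and -0.71 over the 46 members, against -0.62 and -0.66 over 411 other miRNA genes. With Miwi2 WT at 10 dpp, a library of the same form as the fetal ones, the values were -0.51 and -0.48 over the members. Over 471 other miRNA genes they were -0.34 and -0.25. For Miwi2 WT over Dnmt3L WT at 10 dpp the relation had the other sign, 0.64 and 0.66 over 45 members, against 0.19 and 0.21 over 483 other miRNA genes. This is not a separate observation, since Dnmt3L WT at 10 dpp stands above the line in the age ratio and below it here. In the 3 KO comparisons Pearson's r over the members lay between -0.19 and 0.15, where other miRNA genes had 0.037, -0.30 and -0.23 in the fetal Dnmt3L, postnatal Dnmt3L and Miwi2 pairs. The points of each comparison share 2 libraries, and members are not replicates, so these correlations describe the libraries. The first block, which is rich in such members, had a median of -2.77 over 11 members in the Dnmt3L WT age comparison, and the last block -1.03 over 33.

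**Figure D5:**
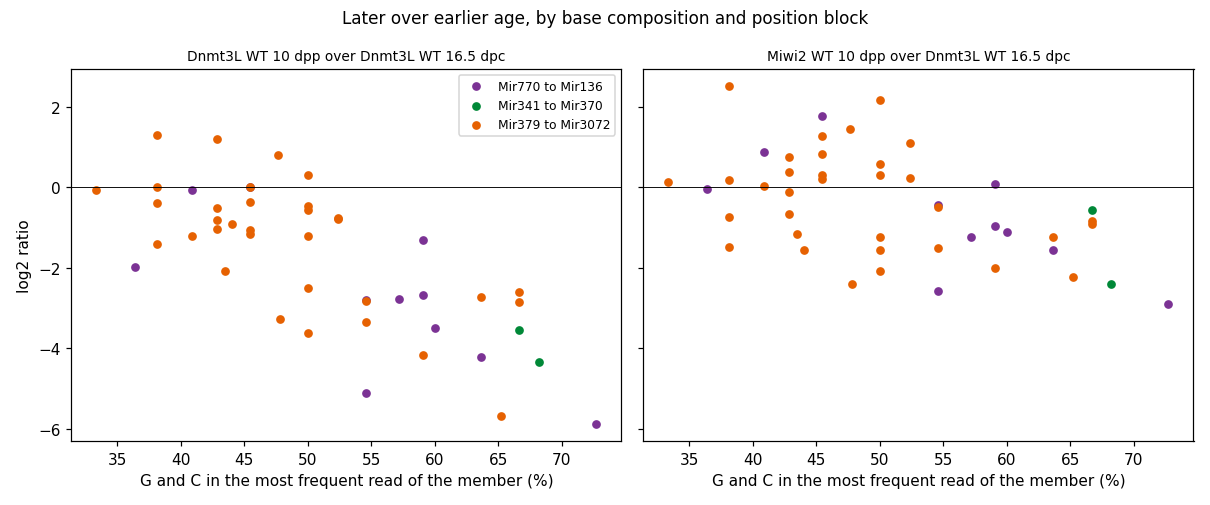
log2 ratio of 10 dpp over 16.5 dpc (y axis) against the share of G and C in the most frequent read of each member (x axis, %), coloured by position block, with Dnmt3L WT (left) or Miwi2 WT (right) as the 10 dpp library and Dnmt3L WT as the 16.5 dpc library in both. On the left the ratio is lower with more G and C (r = -0.74), down to -5.88 for Mir770; on the right the slope is shallower (r = -0.51).

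Each hairpin mostly kept its leading arm across libraries. Of 39 hairpins with both arms listed and at least 50 arm reads in every library, the 5p arm led in all 6 for 15 and the 3p arm for 20. The leading arm differed between libraries for 4, namely Mir379, Mir1193, Mir376b and Mir376a. For Mir1193 the 5p arm led only in fetal Dnmt3L WT, at 56.6%, and the interval of 47.3% to 65.5% includes 50%. For Mir379 the 5p share was 17.05% and 71.7% in fetal Dnmt3L KO and WT, 39.8% and 62.7% in Dnmt3L KO and WT at 10 dpp, and 18.1% and 6.25% in Miwi2 KO and WT. For Mir376b it was 4.94% and 10.99% in the fetal pair, 18.7% and 18.5% in the postnatal Dnmt3L pair, and 69.4% and 54.8% in the Miwi2 pair. Between Miwi2 WT and Dnmt3L WT at 10 dpp the arms of 22 hairpins differed in log2 ratio by a median of 1.34, more than in any KO comparison.

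The ends of the mature miRNAs were mostly those of RefSeq. Among 48 listed arms with at least 1000 reads, the most frequent read began at the RefSeq start for 42 and was identical to the RefSeq sequence for 26. The other 6 began elsewhere: miR-136-3p 1 nt and miR-679-5p 2 nt upstream, miR-376a-5p and miR-485-3p 1 nt and miR-127-5p and miR-496a-3p 2 nt downstream, which shifts the seed by as much. The reads of miR-541-5p, a mature form of 25 nt in RefSeq, averaged 22.8 to 22.9 nt in the 4 postnatal libraries, against 24.2 nt in fetal Dnmt3L KO and 23.4 nt in fetal WT. Those of miR-127-3p averaged 21.5 to 21.7 nt in all 6.

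Adenosine-to-inosine editing, which sequencing reads as A-to-G and which is known for several miRNAs of the cluster, was sought in reads with 1 mismatch. Of 193 positions with A and at least 1000 reads in 47 arms, 1 exceeded 1% over all libraries. This was A6G of miR-376b-3p, counted from 1 at the 5′ end, inside the seed; the unchanged read and the changed read from the deposited data are shown with this base in capitals.
miR-376b-3p, unchanged: atcatAgaggaacatccactt
miR-376b-3p, changed: atcatGgaggaacatccactt
At 10 dpp the changed form made up 2.19% (15 of 686 reads) in Dnmt3L KO and 6.22% (31 of 498) in Dnmt3L WT, with intervals of 1.23% to 3.58% and 4.27% to 8.72%. In the Miwi2 pair it made up 3.50% (7 of 200) in KO and 7.05% (21 of 298) in WT, with intervals of 1.42% to 7.08% and 4.41% to 10.6%. At 16.5 dpc it made up 0.314% (1 of 318) in Dnmt3L KO and 0.602% (2 of 332) in Dnmt3L WT. The share was higher in all 4 postnatal libraries than in both fetal ones, but the fetal shares rest on 1 and 2 changed reads. By counting error the fetal shares overlap the interval of Dnmt3L KO at 10 dpp. In each postnatal pair the KO share lay below the WT share, and the intervals of the Miwi2 pair overlap. Position 5 of miR-411-5p (A5G) also differed by age, with 0.340% and 0.301% in Dnmt3L KO and WT at 10 dpp and 0.506% and 0.584% in Miwi2 KO and WT, against 0.180% and 0.138% in fetal KO and WT. Read positions 1 and 4, where the G-to-T reads gather, also had raised A-to-G shares in the fetal and Miwi2 libraries and are not read as editing.

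Other imprinted miRNA loci were set beside the cluster: Mir335 (in Mest), Mir483 (in Igf2), Mir675 (in H19) and the Gnas-linked Mir296 and Mir298. In Dnmt3L KO over WT at 10 dpp all 5 were on the cluster's side, higher in KO, where 54.7% of all 479 measured miRNA genes were. Mir675 had only 11 reads in KO and 9 in WT, and Mir483 had 92 and 86. Scaled by TMM, which shifted every log2 ratio of this pair by -0.26, Mir335 was lower in KO. Mir335, Mir483, Mir675, Mir296 and Mir298 had 176, 4.24, 0.507, 113 and 1633 RPM in KO, against 151, 3.52, 0.368, 60.8 and 1310 RPM in WT. All 5 were also lower in Dnmt3L WT at 10 dpp than at 16.5 dpc, as were 49.5% of all 471 measured miRNA genes. At 16.5 dpc these 5 had 477, 59.3, 3.55, 447 and 6871 RPM in WT. In fetal Dnmt3L KO they had 339, 53.4, 4.38, 464 and 5798 RPM, so 3 lay below fetal WT and 2 above it. In Miwi2 KO they had 167, 14.0, 0.488, 689 and 7638 RPM, against 150, 10.1, 0.732, 543 and 4939 RPM in Miwi2 WT. There Mir675, with 7 reads in KO and 13 in WT, alone was lower in KO as the cluster was. The miRNA genes inside Sfmbt2, a paternally expressed imprinted gene, went the other way from the Dlk1-Dio3 members in both postnatal KO pairs. In Dnmt3L KO over WT at 10 dpp all 32 measured were below 1 (median -1.22), where 54.7% of all miRNA genes were above 1. In Miwi2 KO over WT 51 of 54 were above 1 (median 0.59), where 50.8% of all were below 1. For Miwi2 WT over Dnmt3L WT all 53 measured were above 1 (83.7% of all), on the same side as most members of the cluster. The Sfmbt2 genes share many reads among themselves and are not independent. The snoRNA genes within the chromosome 12 interval, 23 in number with 13 read, gave 32.9 RPM in fetal Dnmt3L KO and 50.8 RPM in fetal WT, 25.3 and 24.6 RPM in Dnmt3L KO and WT at 10 dpp, and 24.6 and 27.5 RPM in Miwi2 KO and WT. Their summed log2 ratios, -0.63, 0.04 and -0.16 in the 3 pairs, lay nearer to 0 than the cluster's in both postnatal pairs.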

How the data were processed

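Whole-testis RNA was extracted with Trizol and the 18 to 35 nt fraction was made into Illumina TruSeq small RNA libraries, per the labels' protocols. The deposited files list each read sequence with its whole-number count, without normalization; how the submitters trimmed and filtered reads is not given in the sources used here. The submitters' processing notes name the genome build mm9, which was not used. Reads of 18 to 26 nt were matched without mismatch to the sense strand of GENCODE miRNA genes of GRCm38, in Python 3.11.15 with numpy 2.4.6 and scipy 1.17.1. Levels were scaled to 1000000 reads of miRNA genes.

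Each group is 1 library, 6 in all, and labels tie no further replicates to them, so no test was run. Ratios had 0.5 added to each count and needed 100 reads over both libraries. Poisson, Clopper-Pearson and conditional binomial intervals are exact. Reads were given to an arm when they began within 2 nt of a RefSeq mature start. Single-mismatch reads of 20 to 24 nt, leaving out the last 3 bases, gave the A-to-G and G-to-T shares. TMM factors came from edgeR 4.0.16 in R 4.3.3 as an alternative scale only. The counting was tested on simulated counts of the most frequent read of each gene, where that read matched 1 miRNA gene only. Shared reads, reads with a mismatch and the scaling were not part of that check.

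The members and lists were chosen with earlier results of these data known. Named members are the 10 most abundant, the 3 largest rises and falls of each comparison, and Mir410 and Mir323; others are named for position or as outside this rule. The alternatives are described in the closing section.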

Additional observations from a re-analysis of the deposited data

Results flagged for a closer look

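Of 43 members measured in the Dnmt3L pairs of both ages, 17 lay on opposite sides of 1 at 10 dpp and 16.5 dpc, where 38.6% of 404 miRNA genes did. The count was thus near the background. Singled out are the 3 of them that also differed 2-fold or more at 1 of the ages; the difference between ages was not tested, since each age has 1 library per genotype. Mir382 had a log2 ratio of 0.66 at 10 dpp and -1.50 at 16.5 dpc, so that the fetal ratio was lower by 2.15 (-2.15). Mir667 had 1.69 at 10 dpp and -0.46 at 16.5 dpc (16.5 dpc minus 10 dpp, -2.14), and Mir433 had 0.76 at 10 dpp and -1.27 at 16.5 dpc (-2.03).

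A signal outside the exact-match counts was the A-to-G form of miR-376b-3p (A6G), at 3.30% of its reads over all libraries. Of 193 positions examined, this one alone exceeded 1%.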

How the results depend on the processing

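No paired analysis was possible because each group is 1 library and the labels carry no replicate numbers. Scaled to all reads, the cluster's log2 ratio was 0.90 (Dnmt3L KO, 10 dpp over 16.5 dpc), 0.016 (Dnmt3L WT, the same ages), -0.16 (Dnmt3L KO over WT, 16.5 dpc) and -0.0653 (Miwi2 WT over Dnmt3L WT); TMM gave -0.21 for the last, and reads of 20 to 24 nt gave -0.00575 for the fetal Dnmt3L pair. The limit was recomputed under each alternative, at 2.28 with TMM or all reads, 2.53 with a minimum of 1000 reads, 3.19 with a minimum of 10, 2.56 with 20 to 24 nt, 2.94 with 22 nt and 3.24 with reads of 1 gene. Members past the limit in the fetal Dnmt3L pair numbered 2 with TMM, a minimum of 1000 reads, reads of 20 to 24 nt or all reads, and 0 with 22 nt. For Dnmt3L WT by age they numbered 10 with reads of 1 gene only, 11 with 22 nt, 11 with all reads and 1 with Miwi2 WT at 10 dpp; for Dnmt3L KO by age 6 with a minimum of 10 reads, 5 with reads of 1 gene and 6 with all reads. Between Miwi2 WT and Dnmt3L WT they numbered 1 with TMM or a minimum of 10, and 2 with reads of 1 gene, 22 nt or all reads. With the limit kept at 2.64, TMM and all reads gave 1 and 1 in the fetal Dnmt3L pair, 18 and 6 for Dnmt3L WT by age, 5 and 3 for Dnmt3L KO by age, and 0 and 1 between both WT libraries. Members past 2-fold numbered 3 (TMM), 3 (minimum 1000) and 20 (all reads) in the Dnmt3L pair of 10 dpp, 12 (reads of 1 gene) and 14 (22 nt) in the fetal pair, 0 (minimum 1000) and 1 (22 nt) in the Miwi2 pair, and 18 (TMM) between both WT libraries. Mir665 turned from a log2 ratio of -2.66 to 0.084 with Miwi2 WT as the 10 dpp library. The causes were not tested. The remaining 122 values of sums and counts kept their direction, for sums, or stayed within 1.5 times, for counts; among these sums, the fetal Dnmt3L pair had 0.70 without Mir127 and 0.30 with reads of 1 gene (0.028 otherwise), the Dnmt3L pair of 10 dpp 0.23 with TMM (0.49 otherwise), Dnmt3L KO by age -0.16 with TMM (-0.66 otherwise) and Dnmt3L WT by age -0.48 with Miwi2 WT at 10 dpp (-1.12 otherwise). Of the ratios of single named members, 760 kept direction and side of the limit, 27 no longer passed it, 10 newly passed it and 53 below it changed sign. Depth limits members of low level, whose ratios rest on little over 100 reads. The alternatives with Miwi2 WT, with G-to-T reads with the kept limit and those on the 2-fold counts were chosen after seeing the data.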
